A study of Mus musculus with 5 samples.

Results

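Long noncoding RNAs that were close to silent in control hair follicle stem cells and counted in every sample after loss of Polycomb repressive complex 1 (PRC1) are described here. They were chosen on the values themselves: a TPM (a transcript level scaled for length and library total) of at most 0.1 in both Control samples and an expected count of at least 10 in each of the 3 PRC1 i2KO samples. Of the 5441 features whose deposited type is lincRNA, antisense, processed transcript or bidirectional promoter lncRNA, 11 met these limits, in a table of 30840 features. They comprised 5 lincRNAs, 4 antisense RNAs, 2 processed transcripts and 0 bidirectional promoter lncRNAs. Because both groups entered the choice, their difference between the groups is given as a description and without a test.

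Polyadenylated RNA was sequenced in stem cells of the hair follicle, sorted from mouse skin at postnatal day 70 as EpCAM+, CD34+, α6-integrin high and Sca1- cells, with 50000 cells per sample. All mice, controls included, were Ring1a-/- and Ring1b flox/flox and received 1% RU-486 on the skin each day for 10 days, starting at postnatal day 50. The Control group (samples 2 and 3) had no Cre in its labelled genotype, and the PRC1 i2KO group (samples 1, 2 and 3) also carried K15-CrePR1, a Cre that RU-486 activates in cells using the keratin 15 promoter. The groups therefore differ in the transgene as well as in the deletion, and every value is from mice labelled Ring1a-/-.

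PRC1 attaches ubiquitin to histone H2A at its target genes, through its catalytic subunits Ring1a or Ring1b, and holds many developmental regulators silent in cells of other lineages. Genes for such regulators, the Hox genes among them, often have a long noncoding RNA transcribed from the opposite strand or from a shared start region. Long noncoding RNAs as a class are usually made at low levels, and many have no known function.

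Total expected counts ranged from 11626313 in Control 3 to 43307892 in PRC1 i2KO 2, so a count of 10 stood for 0.458, 0.226 and 0.316 CPM (counts scaled to library size by TMM) in PRC1 i2KO 1, 2 and 3. Rnf2, the gene of Ring1b, stood at 27.7 and 37.5 CPM in Control 2 and 3, and at 39.9, 33.1 and 36.4 CPM in PRC1 i2KO 1, 2 and 3, so the groups overlapped. In TPM it read 25.1 and 24.4 in the controls and 16.8, 12.9 and 11.7 in PRC1 i2KO, lower in all 3. The bases that the flox alleles remove are not given in these sources, and the scales differ, so these gene totals check neither the deletion nor the labels. Bulge markers were high throughout, with 11 of 11 measured and a summed level of 12567 and 13237 CPM in the controls and 11682 to 14280 CPM in PRC1 i2KO. That sum hides single genes. Cd34, also a sort marker, went from 477 and 326 CPM in Control 2 and 3 to 298, 292 and 164 CPM in PRC1 i2KO 1, 2 and 3. Lhx2 (659 and 718 against 508, 559 and 409 CPM) and Lgr5 (449 and 471 against 322, 315 and 382 CPM) were also lower in each. Krt14 was higher in each (695 and 832 against 1322, 1431 and 971 CPM), and the others overlapped. Markers of other cells were low but some moved with the group: fibroblast genes (6 of 6 in the table) summed to 21.1 to 23.7 CPM in the controls and 48.0 to 65.9 CPM in PRC1 i2KO, where Pdgfra reached 32.5 CPM. Col1a1 went from 3.41 and 2.94 CPM to 11.2, 19.7 and 7.89 CPM, while Col3a1 had no count in 4 libraries and 0.271 CPM in PRC1 i2KO 2. The fibroblast genes did not move together: Col1a2 overlapped, at 16.8 and 15.7 CPM against 13.3, 20.3 and 20.9 CPM. Dcn stood apart only in PRC1 i2KO 3 (3.13 CPM), and Lum overlapped at 0.158 CPM or below. Merkel cell genes (3 of 4 in the table) summed to 1.81 to 1.96 CPM and 13.5 to 20.2 CPM, mostly Piezo2, at 1.96 and 1.81 against 12.6, 14.5 and 17.0 CPM. Isl1 had no control count and 0.871, 0.857 and 3.19 CPM, while Krt20 had no count in 4 libraries and 0.0677 CPM in PRC1 i2KO 2. Germ cell genes (3 of 6 in the table) reached 0.102 CPM at most in the controls and 0.321 to 0.720 CPM in PRC1 i2KO. The summed levels of neuron or Schwann cell (5 of 6), melanocyte (3 of 4), immune (4 of 5) and endothelial genes (3 of 4) overlapped between the groups, the highest being 22.7 CPM. In these 8 marker lists edgeR and limma-voom called 0 genes, while DESeq2 called 2 fibroblast and 2 Merkel cell genes higher (3.43% of all features). At an unadjusted edgeR p under 0.05, 1 of 11 bulge genes tested was higher (Krt14) and 3 lower (Cd34, Lhx2 and Lgr5). Of the genes tested, 2 of 3 fibroblast and 2 of 2 Merkel cell genes were higher, and 1 of 2 endothelial genes was lower. Over all features 7.43% were higher and 3.51% lower. Isl1, among the Merkel cell genes, passed the filter through PRC1 i2KO alone and could only come out higher. Their part in the values below was not tested, and in bulk RNA more cells of a type and more RNA per cell cannot be told apart.

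The 11 RNAs stayed scarce after PRC1 loss, with between 45 and 375 counts each over the 3 PRC1 i2KO libraries. In 10 of 11, every PRC1 i2KO library lay above both controls in CPM, against 14.6% of the 22181 features tested. The choice used this contrast, so nothing is read from that count. The exception was Gm33148, whose groups overlapped, and the word appearing describes it poorly. With library totals alone in place of TMM scaling, 9 of 11 separated, because PRC1 i2KO 2 then no longer exceeded Control 3 for Phtf1os. In the controls, 5 of the 11 had no count, 1 had a single count and 5 had more than 3 counts. Their summed share of all counts was 0.000105% and 0.000203% in the controls and 0.00195%, 0.00150% and 0.00138% in PRC1 i2KO 1, 2 and 3. In the fit over all features, edgeR's quasi-likelihood test with Benjamini-Hochberg adjustment called 0 of 11 higher (0.126% of all features), 8 of 11 had an unadjusted p under 0.05 (7.43% of all), DESeq2 called 6 (3.43%) and limma-voom 0 (0.018%). These counts too rest on the contrast that chose the RNAs.

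**Figure D1:**
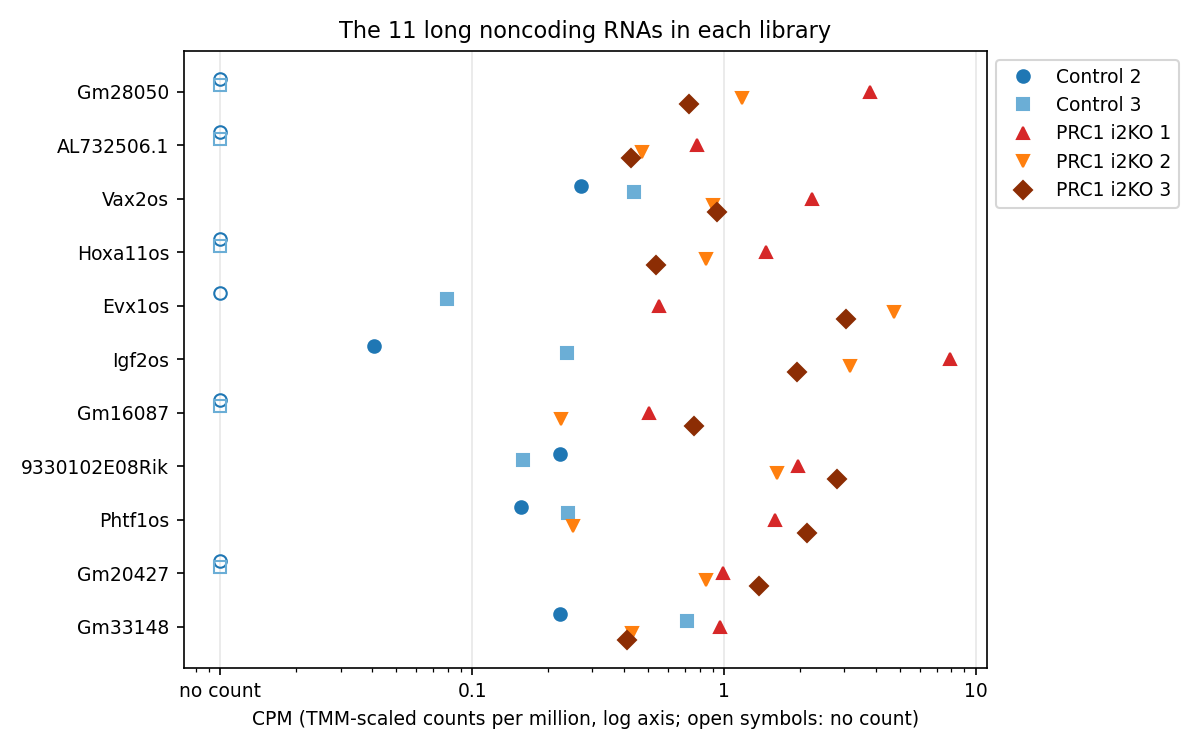
CPM (TMM-scaled, log axis) of each of the 11 RNAs in the 2 Control and 3 PRC1 i2KO libraries, 1 symbol per library, with open symbols at the left edge for libraries with no count. Gm33148 is the only row in which a control symbol lies to the right of PRC1 i2KO symbols, and Phtf1os nearly touches, with PRC1 i2KO 2 at 0.251 and Control 3 at 0.240 CPM.

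Hoxa11os and Evx1os lie at the 5′ side of the Hoxa gene cluster, which patterns the posterior body and the distal limb. Hoxa11os (ENSMUSG00000086427.8), transcribed from chromosome 6 on the strand opposite Hoxa11, had no count in Control 2 or 3 and 1.47, 0.844 and 0.538 CPM in PRC1 i2KO 1, 2 and 3. All 3 PRC1 i2KO libraries lay above both controls, and PRC1 i2KO 1 was highest. Set against the floor that 3 counts over both controls allow (0.0485 CPM), the level was at least 19.6-fold higher, and in TPM it was 1.56, 1.06 and 0.613. Hoxa11 itself, a homeobox gene of limb and uterus patterning that overlaps Hoxa11os, did not follow it. Hoxa11 measured 0 and 0.0793 CPM in the controls, compared with 0.183, 0 and 2.21 CPM in PRC1 i2KO 1, 2 and 3, so only PRC1 i2KO 3 stood apart, where Hoxa11os was lowest. Hoxa11 did not pass the filter on low counts and was not tested. Hoxa10, whose start lies 3.54 kb away on the other side, measured 1.24 and 0 CPM in the controls, compared with 15.4, 3.05 and 3.86 CPM in PRC1 i2KO. Its log2 fold change was 3.42 ± 1.27 (SE), with an adjusted p of 0.369 by edgeR and of 0.0332 by DESeq2. The log2 fold change rested on single libraries: it was 10.68 without Control 2 and 2.36 without PRC1 i2KO 1.

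Evx1os (ENSMUSG00000086126.1) lies 70.4 kb from Hoxa11os, antisense to Evx1, a homeobox gene of posterior axis and spinal cord interneurons. It had no count in Control 2, 1 count (0.0793 CPM) in Control 3, and 0.550, 4.71 and 3.04 CPM in PRC1 i2KO 1, 2 and 3. PRC1 i2KO 1 was the low library here, 8.57-fold under PRC1 i2KO 2, the widest spread among the 11. The ratio of the groups was 201, with a 95% counting interval of 35.7 to 7947. Evx1 had no count in either control and 5.41, 2.05 and 2.82 CPM in PRC1 i2KO 1, 2 and 3, at least 70.6-fold above the floor. The gene and its antisense RNA were thus in opposite order over the libraries: Evx1 was highest in PRC1 i2KO 1, where Evx1os was lowest. The log2 fold change of Evx1 was 9.77 ± 1.54 with an adjusted p of 0.0867 by edgeR, so it was not called. Evx1 passed the filter through PRC1 i2KO alone, so it could only come out higher. It was called by DESeq2 (adjusted p = 2.17e-05) and by edgeR without the filter on low counts (0.0145). With the title numbers as a block, PRC1 i2KO 1 has no same-numbered control and adds nothing to the group difference. In that edgeR fit Evx1 was also called (adjusted p = 0.0276). It was not called with the description numbers as a block (0.285), nor by edgeR with any 1 library left out (0.0742 to 0.635), and neither numbering paired the samples.

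Between them, Hoxa13, the gene of the distal limb and genital tubercle at the end of the cluster, measured 0.0203 and 0.0793 CPM in the controls, compared with 13.01, 5.23 and 11.5 CPM in PRC1 i2KO. It was called higher by edgeR (log2 fold change 7.98 ± 0.97, adjusted p = 0.0252). Hoxa13 passed the filter through PRC1 i2KO alone, so it could only come out higher. The unclassified transcript 9530018H14Rik, 13.1 kb from the Hoxa11os start, went from 0 and 0.0793 CPM to 6.78, 4.399 and 0.443 CPM and missed the choice only by its type. Hottip, the long noncoding RNA next to Hoxa13, had a count in PRC1 i2KO 1 alone (0.183 CPM). At the other side, Hoxa5 was already at 37.2 and 44.1 CPM without Cre and at 34.0, 39.3 and 37.3 CPM with it, so its groups overlapped. Hoxa7 was lower in every PRC1 i2KO library, with 80.9, 67.8 and 71.3 CPM after 149.8 and 132.6 CPM in Control 2 and 3, but was not called (log2 fold change -0.95 ± 0.18, adjusted p = 0.134 by edgeR).

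**Figure D2:**
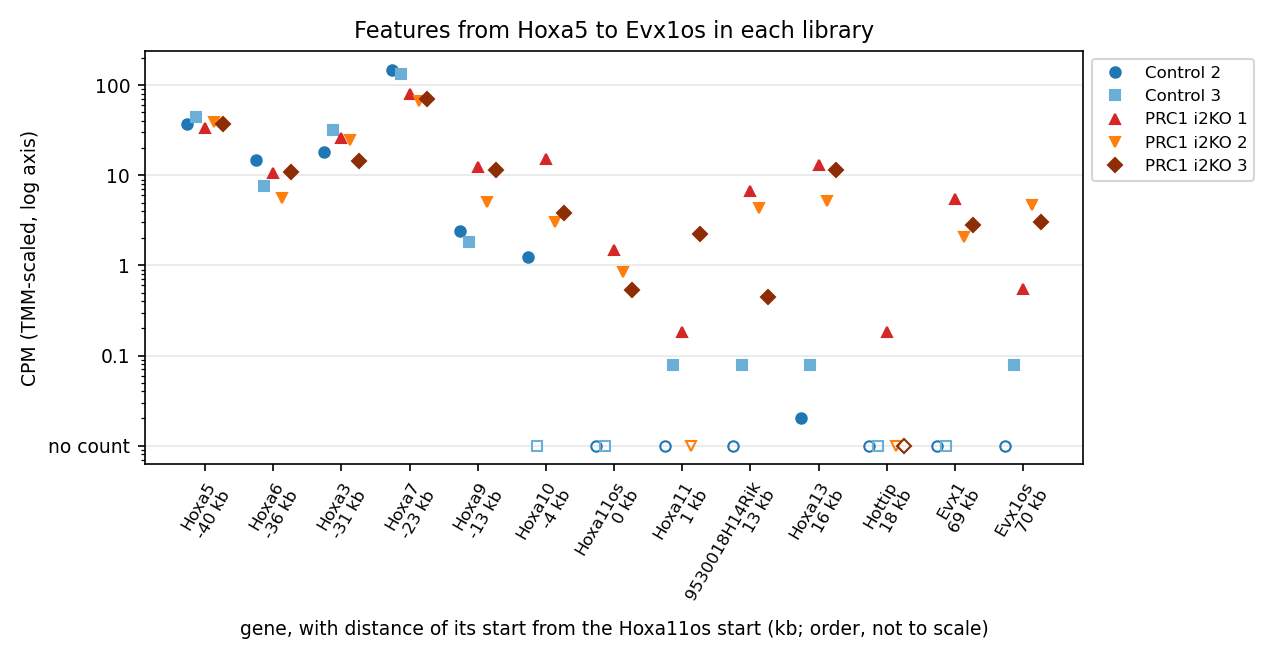
CPM (TMM-scaled, log axis) of features from Hoxa5 to Evx1os, in their order along the chromosome with the distance of each start from the Hoxa11os start, 1 symbol per library and open symbols for no count. From Hoxa13 to Evx1os the control symbols sit at no count or below 0.1 CPM, while at Hoxa5 and Hoxa7 both groups lie above 10 CPM.

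Vax2os (ENSMUSG00000085794.5), also on chromosome 6, runs antisense to Vax2, a homeobox gene of the ventral eye. Its level was 0.270 and 0.440 CPM in Control 2 and 3 and 2.23, 0.908 and 0.940 CPM in PRC1 i2KO 1, 2 and 3. Every PRC1 i2KO library was above both controls, by 3.83-fold in the means, and the controls were not silent: they held 13.3 and 5.55 counts. On the TPM scale the controls read 0.0820 and 0.0991 and PRC1 i2KO 2.11, 0.939 and 0.633, a wider gap. The transcript length implied by counts over TPM was 0.1997, 0.235 and 0.303 of the control mean in PRC1 i2KO 1, 2 and 3. The annotation lists 4 Vax2os transcripts of 595 to 4063 bases, and whether the estimate shifted between them was not tested. For Igf2os, 9330102E08Rik, Phtf1os and Gm33148, the other members with counts in both controls, that implied length stayed within 0.986 to 1.00 of the control mean. Vax2 had no count in the controls and 0.329, 0.490 and 0.402 CPM in PRC1 i2KO, at least 8.39-fold above the floor, with an adjusted p of 0.284 by edgeR.

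Igf2os (ENSMUSG00000086266.1) is transcribed on chromosome 7 across Igf2, the imprinted fetal growth factor gene, from the opposite strand. It stood at 0.0406 and 0.238 CPM in Control 2 and 3, and at 7.93, 3.16 and 1.95 CPM in PRC1 i2KO 1, 2 and 3, 31.2-fold higher in the means. The lowest PRC1 i2KO library stood well above the higher control, with 61.8 against 3 counts. Igf2 measured 2.01 and 1.69 CPM in the controls, compared with 290, 226 and 220 CPM in PRC1 i2KO, and it was the only protein-coding neighbour within 10 kb that edgeR called (log2 fold change 7.03 ± 0.28, adjusted p = 3.1e-05). Sense and antisense both had their highest PRC1 i2KO value in sample 1. Neither labels nor headers say whether counting used the strand, so reads of Igf2 and of Igf2os cannot be told apart with certainty, and the same holds for each antisense pair described. H19, the maternally expressed long noncoding RNA at the other end of this imprinted domain, measured 0 and 0.238 CPM in the controls, compared with 0, 0 and 0.791 CPM in PRC1 i2KO.

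Gm33148 (ENSMUSG00000110125.1), a lincRNA between H19 and Igf2os, was the member that did not separate. It stood at 0.224 and 0.715 CPM in Control 2 and 3, and at 0.964, 0.430 and 0.412 CPM in PRC1 i2KO 1, 2 and 3. Control 3 exceeded PRC1 i2KO 2 and 3. The ratio of the means was 1.28, and its long transcript of 7227 bases kept the control TPM values at 0.0375 and 0.0887, under the limit.

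The remaining antisense RNA, Phtf1os (ENSMUSG00000089998.2), starts near Phtf1 on chromosome 3 and also overlaps Rsbn1, both broadly transcribed genes. It stood at 0.157 and 0.240 CPM in Control 2 and 3, and at 1.60, 0.251 and 2.13 CPM in PRC1 i2KO 1, 2 and 3. PRC1 i2KO 2 was level with Control 3, while PRC1 i2KO 1 and 3 were far above. Phtf1 went the other way without passing the test, at 56.2 and 39.7 CPM in the controls and 37.9, 33.4 and 21.5 CPM in PRC1 i2KO (log2 fold change -0.64 ± 0.30, adjusted p = 0.487 by edgeR), and Rsbn1 was at -0.22 ± 0.21 on the log2 scale.

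Gm20427 (ENSMUSG00000092595.1) lies on the same strand as Slc39a7, a zinc transporter gene, and H2-Ke6 on chromosome 17, and both of its annotated transcripts are of the retained-intron kind. It had no count in the controls and 0.987, 0.848 and 1.37 CPM in PRC1 i2KO 1, 2 and 3, at least 22.1-fold above the floor. Its PRC1 i2KO values were the most even of the 11, with a highest-to-lowest ratio of 1.62. Neither overlapping gene was called by edgeR (adjusted p = 0.908 and 0.760): Slc39a7 stood at 19.7 and 24.8 CPM against 29.4, 17.3 and 27.8 CPM, and H2-Ke6 at 13.7 and 12.3 against 14.1, 24.3 and 13.1 CPM. Reads here could be split between Gm20427 and these expressed genes. Ring1, the gene of Ring1a, for which all mice are labelled -/-, starts 6900 bases from Gm20427 and kept 1.58 to 4.998 CPM in the 5 libraries, so its reads do not by themselves show the loss.

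The feature named AL732506.1 (ENSMUSG00000115420.1) needs its sequence to be read. The annotation GENCODE M21 names it Rmrp, the RNA of the RNase MRP ribonucleoprotein, and a second Rmrp record of type ribozyme (ENSMUSG00000088088.1) lies wholly inside it. The transcript of 281 bases is printed from the M21 transcript set, with the 5 bases at each end that the ribozyme record of 271 bases lacks in capitals.
AL732506.1: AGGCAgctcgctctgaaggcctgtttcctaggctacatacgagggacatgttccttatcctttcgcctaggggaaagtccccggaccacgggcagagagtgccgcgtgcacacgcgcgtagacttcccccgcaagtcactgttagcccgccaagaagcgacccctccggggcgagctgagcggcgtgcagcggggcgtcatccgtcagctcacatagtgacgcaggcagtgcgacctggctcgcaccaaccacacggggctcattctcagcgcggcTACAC
AL732506.1 had no count in the controls and 0.779, 0.474 and 0.425 CPM in PRC1 i2KO 1, 2 and 3. The ribozyme record had 4 and 1 counts in Control 2 and 3 and 0, 0 and 2.49 counts in PRC1 i2KO 1, 2 and 3. The few control reads were thus assigned to the shorter record and nearly all PRC1 i2KO reads to the longer. Summed over both records, the level was 0.0812 and 0.0793 CPM in the controls and 0.779, 0.474 and 0.504 CPM in PRC1 i2KO. The summed PRC1 i2KO libraries still lay above both controls, but the controls were no longer at 0. In TPM the sum read 0.940 and 0.620 in Control 2 and 3 and 4.48, 3.75 and 3.46 in PRC1 i2KO 1, 2 and 3. The summed control values exceed the limit of 0.1 TPM, so AL732506.1 met that limit only as a separate record. Ccdc107, which overlaps it, and Arhgef39 nearby were not called by edgeR (adjusted p = 0.561 and 0.562).

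The other 3 lincRNAs overlap no protein-coding gene. Gm28050 (ENSMUSG00000099061.1, chromosome 5) had no count in the controls and 3.80, 1.17 and 0.728 CPM in PRC1 i2KO 1, 2 and 3. It was at least 39.2-fold above the floor, the largest of the bounds, and its TPM values were 9.71, 4.02 and 2.10, the highest of the 11 in PRC1 i2KO 1 and 2 but under AL732506.1 (2.89 TPM) in PRC1 i2KO 3. The start of the nearest protein-coding gene in the table, Gm17304, lies 34380 bases away, and that gene had 1 count in Control 3 and 1 in PRC1 i2KO 3. 9330102E08Rik (ENSMUSG00000107879.1, chromosome 6) measured 0.223 and 0.159 CPM in the controls, compared with 1.97, 1.62 and 2.82 CPM in PRC1 i2KO, 11.2-fold higher in the means. All 3 PRC1 i2KO libraries of this RNA lay clear of the controls and within a ratio of 1.73 of each other. Gm16087 (ENSMUSG00000086319.1, chromosome 12) had no control count and 0.504, 0.226 and 0.759 CPM in PRC1 i2KO, at least 10.2-fold above the floor, on 11, 10 and 24 counts. It sits 532704 bases from the nearest protein-coding start in the table.

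Some of the choice rests on the limits. Just inside them, the lowest PRC1 i2KO counts were 10 for Gm16087, 11.1 for Phtf1os and 12 for Evx1os, and the highest control TPM values were 0.0991 for Vax2os, 0.0887 for Gm33148 and 0.0720 for 9330102E08Rik. Just outside, 9830132P13Rik, Gm13479 and Gm17110 had control TPM values of 0.107, 0.116 and 0.124. Gm38416, Gm16189 and Gm17130 had lowest PRC1 i2KO counts of 9.45, 9 and 9. The 11 RNAs did not share a library order either. PRC1 i2KO 1 was the highest library for 6 of them, PRC1 i2KO 2 for 1 and PRC1 i2KO 3 for 4, and the lowest for 1, 5 and 5.

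The protein-coding genes beside the RNAs were picked by position, but 8 of the 13 tested overlap a member and may share its reads, so their tests are not independent of the choice. Of 14 such genes in the table that overlap a member or start within 10 kb of its start, 13 passed the filter, and they belong to 7 of the 11 RNAs. edgeR called 1 higher, Igf2, and 0 lower, against 0.126% and 0% of all features. At an unadjusted p under 0.05 there were 4 higher (Igf2, Evx1, Vax2 and Hoxa10) and 0 lower, with 7.43% and 3.51% of all features. Evx1 and Vax2 had no control count and passed the filter through PRC1 i2KO alone, so they could only come out higher and that count is not evidence about the neighbours. The median log2 fold change of the 13 was 0.43, that of protein-coding features tested 0.11 and that of all features tested 0.0053. Evx1 and Vax2 enter the median of the 13 as well. Split by position, 1 of 8 tested genes that overlap a member was called and 3 had an unadjusted p under 0.05, against 0 and 1 of the 5 that do not overlap. Within 100 kb, 2 of 44 tested genes were called, Hoxa13 and Igf2, with a median of 0.39, and at an unadjusted p under 0.05 there were 9 higher and 1 lower, Hoxa7. Hoxa13, at 0.0203 and 0.0793 CPM in Control 2 and 3, passed the filter through PRC1 i2KO alone, as did Evx1 and Vax2. The 100 kb counts and median include such genes, so they are not evidence about the neighbours either. Separate animals within a group are not stated in the labels, so the p-values may measure only technical spread.

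**Figure D3:**
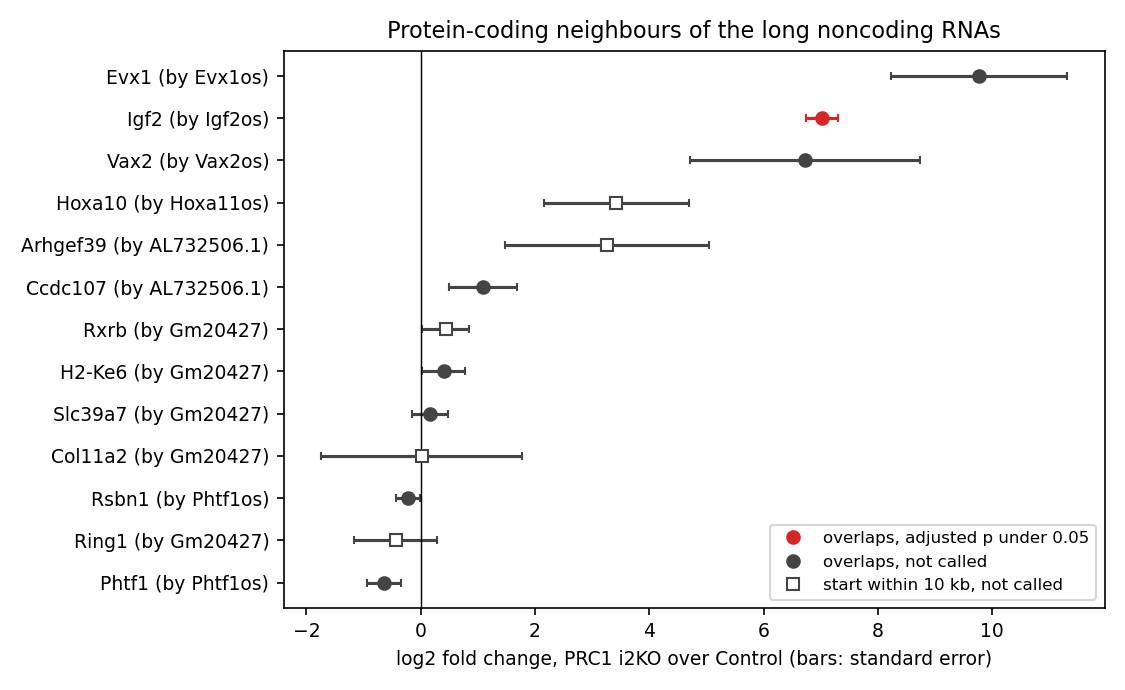
Log2 fold change of the 13 tested protein-coding neighbours, PRC1 i2KO over Control, with standard errors as bars, and the member each lies beside in brackets. Igf2, at 7.03, has a short bar and is the only one called by edgeR; Evx1 and Vax2, at 9.77 and 6.73, have wide bars and no count in either control.

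CpG-rich start regions are a known property of many genes bound by Polycomb complexes, so the promoters of the members were read for CpG sites. RefSeq (build GRCm38.p6) gave 12 promoters for 7 of the 11, each 300 bases from 250 before to 50 after an annotated start, and AL732506.1, Igf2os, Gm16087 and Gm20427 were not matched. The motif searched was CG, which reads the same on both strands. The promoters with the most and with few CpG sites among those whose start matches a GENCODE transcript are printed 5′ to 3′ on the strand of the RNA, with each CG in capitals. Hoxa11os is from chr6:52244993-52245292 (+), Vax2os from chr6:83712152-83712451 (-), Evx1os from chr6:52314783-52315082 (-) and 9330102E08Rik from chr6:128183754-128184053 (-).
Hoxa11os: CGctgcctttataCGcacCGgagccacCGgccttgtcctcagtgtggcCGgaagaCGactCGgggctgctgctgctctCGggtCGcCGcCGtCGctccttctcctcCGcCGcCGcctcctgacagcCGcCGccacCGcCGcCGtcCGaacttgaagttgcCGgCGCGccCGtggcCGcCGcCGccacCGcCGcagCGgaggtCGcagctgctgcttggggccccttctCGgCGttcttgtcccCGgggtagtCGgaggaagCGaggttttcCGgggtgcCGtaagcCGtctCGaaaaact
Vax2os: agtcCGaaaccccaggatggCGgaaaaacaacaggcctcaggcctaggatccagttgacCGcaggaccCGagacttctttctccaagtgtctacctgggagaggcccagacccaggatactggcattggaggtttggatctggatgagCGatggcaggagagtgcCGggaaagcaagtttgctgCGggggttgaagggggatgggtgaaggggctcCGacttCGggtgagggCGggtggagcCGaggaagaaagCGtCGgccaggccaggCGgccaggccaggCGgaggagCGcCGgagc
Evx1os: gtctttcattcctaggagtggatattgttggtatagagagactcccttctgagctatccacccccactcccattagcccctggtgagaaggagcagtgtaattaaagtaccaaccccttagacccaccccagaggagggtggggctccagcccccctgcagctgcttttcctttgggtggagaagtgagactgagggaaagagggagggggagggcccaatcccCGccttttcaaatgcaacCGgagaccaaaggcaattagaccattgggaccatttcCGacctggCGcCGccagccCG
9330102E08Rik: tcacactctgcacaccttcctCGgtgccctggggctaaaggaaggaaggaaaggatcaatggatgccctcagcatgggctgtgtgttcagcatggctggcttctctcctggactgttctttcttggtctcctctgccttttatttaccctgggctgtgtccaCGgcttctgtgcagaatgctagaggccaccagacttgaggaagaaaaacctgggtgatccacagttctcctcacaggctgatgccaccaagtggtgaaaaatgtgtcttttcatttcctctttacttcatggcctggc
The Hoxa11os promoter held 41 CpG sites, more than 96.5% of the 32841 promoters in the table. Phtf1os followed with 32, at a start 265 bases from its nearest GENCODE start, and Vax2os with 17 at 1 start and 9 at the other. Evx1os had 6, close to the median of 7 over all promoters, and 9330102E08Rik had 2, with 14.1% of promoters holding fewer. Gm33148 had 1 to 8 over its 5 starts. It had 1 at those 64 to 85 bases from its nearest GENCODE start and 8 at a start 19075 bases away. Gm28050 had 2, at a RefSeq start 58734 bases from its nearest GENCODE start. By a limit of 50% GC and an observed-to-expected CpG ratio of 0.6, 3 of the 7 members had a CpG-rich promoter (Hoxa11os, Phtf1os and Vax2os, the last just past the limit at 0.612). The 12 promoters include the 5 of Gm33148, some of which cover nearly the same bases, so they are not 12 separate sequences. Counted by promoter, 3 of the 12 were CpG-rich. The same held for 33.5% of all promoters and 22.5% of the 2692 promoters of long noncoding features in the table. The members with CpG-poor promoters included Evx1os and 9330102E08Rik, so the 7 members were of both kinds.

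**Figure D4:**
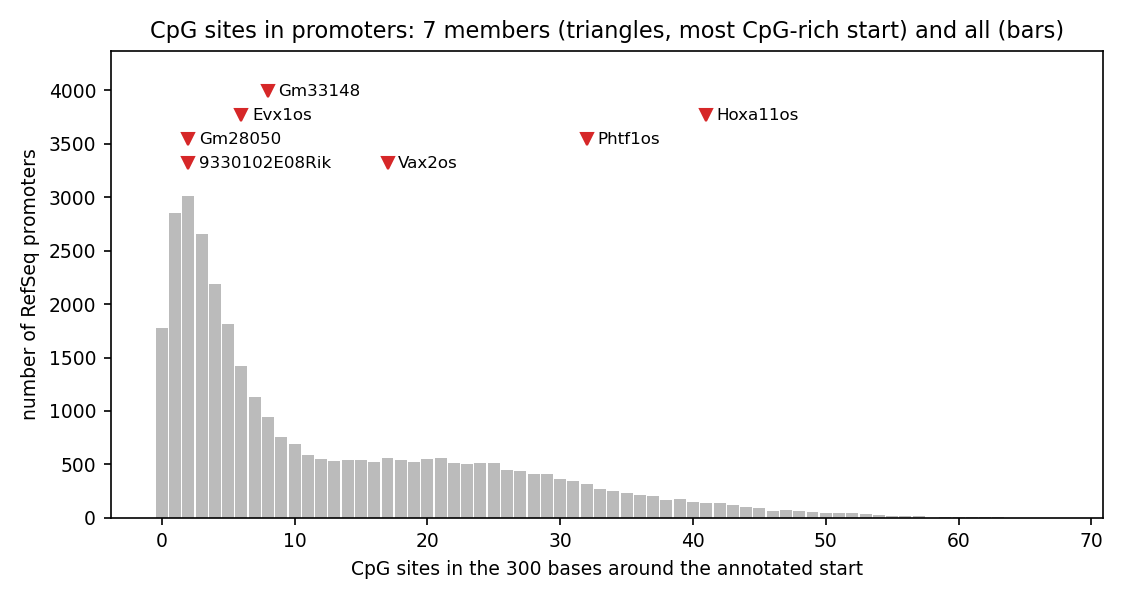
Number of RefSeq promoters (bars) by their CpG sites in 300 bases, with the most CpG-rich start of each of 7 members as a triangle, whose height has no meaning. Hoxa11os at 41 and Phtf1os at 32 lie in the right tail, Vax2os at 17 lies between, and 4 members lie at 8 or below with most promoters. The start drawn for Gm33148, at 8, lies 19075 bases from its nearest GENCODE start.

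The class from which the RNAs came had a median fold change below 0. Of 3317 long noncoding features tested, edgeR called 0 higher and 0 lower, with a smallest adjusted p of 0.124 for Gm16897, and limma-voom called 0 and 0. At an unadjusted p under 0.05, 87 were higher and 173 lower, whereas over all features 1647 were higher and 778 lower. DESeq2 called 20 higher, 6 of them members, and 35 lower, where over all features it called 3.43% higher and 0.75% lower. The median log2 fold change was -0.40 for the class, 0.11 for protein-coding features and 0.0053 for all. The class median stayed below that of all features under each of the 13 other settings tried, by between 0.0946 and 0.586. Long noncoding features took 4.17% and 3.79% of counts in the controls and 2.56%, 3.06% and 2.98% in PRC1 i2KO, a difference of -1.12 percentage points (exact permutation p = 0.2, two-sided, the smallest that 2 against 3 samples allow). The difference was -0.929 points without mitochondrially encoded features and -0.395 points as a share of TPM. Malat1, an abundant nuclear RNA, made up most of that difference, at 2.09% and 1.63% against 0.745%, 1.27% and 1.28%. Without it the shares were 2.08% and 2.16% against 1.82%, 1.78% and 1.70%, and the groups still did not overlap.

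**Figure D5:**
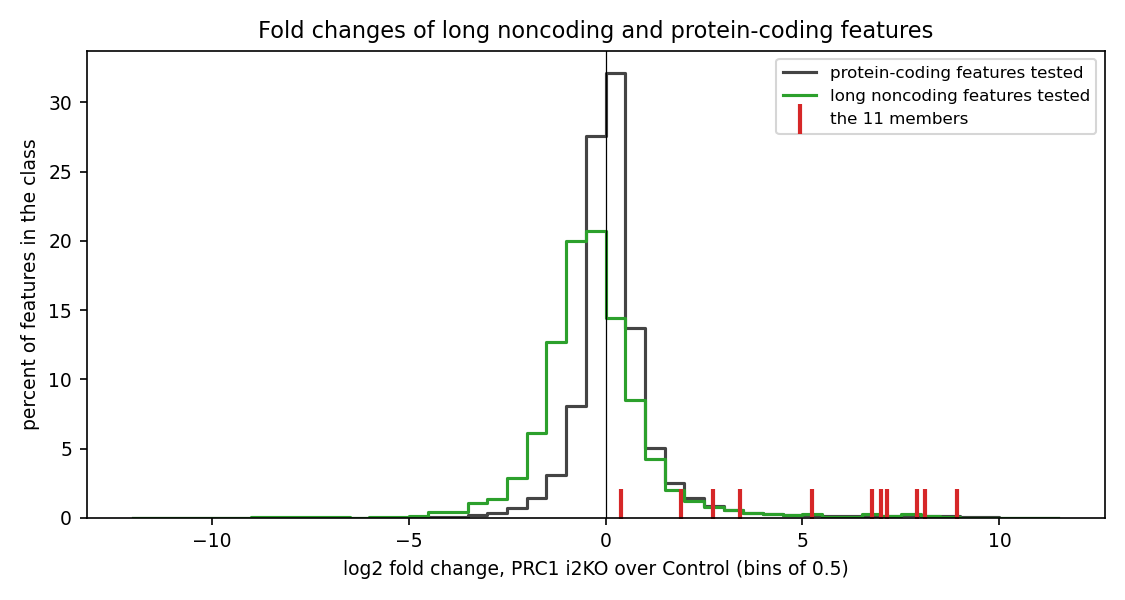
Share of tested features in each bin of 0.5 log2 fold change, PRC1 i2KO over Control, for long noncoding and protein-coding features, with red ticks for the 11 members. The long noncoding curve is wider and sits to the left, with a median of -0.40 against 0.11, while the members, chosen to be high, lie to the right of 0.

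The mirrored limits, at most 0.1 TPM in all 3 PRC1 i2KO libraries and at least 10 counts in both controls, were met by 30 long noncoding features. That count cannot be set directly against 11, because 10 counts in Control 3 stand for 0.793 CPM and the mirrored limits ask for 2 libraries rather than 3. Among the 30, Gm17216 had 2.31 and 1.39 CPM in Control 2 and 3 and no count in any PRC1 i2KO library. Under the limits used for the members, 122 of 17431 protein-coding features were chosen, or 0.700%, compared with 0.202% of long noncoding features. These shares were not matched for level either.

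4 lists of RNAs known as long noncoding were also counted, in which the table types 5730596B20Rik and Snhg11 as protein-coding and Peg13 as sense intronic. Of the Hox cluster RNAs, 12 of 16 were in the table and 10 tested, with 0 called by edgeR. At an unadjusted edgeR p under 0.05, 2 were higher (Hoxa11os and Hotair), against 7.43% of all features. DESeq2 called 1 higher (Hoxa11os), against 3.43% of all. Hoxa11os is a member, and neither it nor Hotair had a control count. Both passed the filter through PRC1 i2KO alone and could only come out higher, so these counts are not evidence about the list. Hotair, the RNA of the Hoxc cluster, had no control count and 0.458, 0 and 2.18 CPM in PRC1 i2KO 1, 2 and 3, so sample 2 kept it out of the choice. The most abundant of this list were present in the controls: Gm53 was at 19.4 and 30.3 against 24.5, 18.0 and 17.7 CPM, and Hoxd3os1 at 12.6 and 10.8 against 3.54, 13.2 and 4.90 CPM. 5730596B20Rik was at 14.1 and 15.4 CPM against 7.29, 10.0 and 9.65 CPM, lower in every PRC1 i2KO library without passing the test (adjusted p = 0.512 by edgeR).

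Of the opposite-strand RNAs of developmental genes, 17 of 30 were in the table and 14 tested, with 0 called by edgeR. Higher at an unadjusted edgeR p under 0.05 and by DESeq2 was 1 (Dlx6os1), against 7.43% and 3.43% of all features. These counts are not read as a result about the list. Dlx6os1, the RNA opposite the homeobox gene Dlx6, measured 0.532 and 0.722 CPM in the controls, compared with 2.58, 6.28 and 4.45 CPM in PRC1 i2KO (log2 fold change 2.85 ± 0.77, adjusted p = 0.229 by edgeR). All 3 PRC1 i2KO libraries lay above the controls, whose TPM of 0.147 and 0.148 kept it outside the limit. Tbx3os1 was at 4.16 and 2.54 against 1.43, 3.02 and 3.49 CPM and Sox2ot at 2.99 and 4.18 against 0.728, 2.36 and 2.37 CPM.

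The imprinted and dosage RNAs had 15 of 15 in the table and 12 tested, with 0 called by edgeR and 1 higher at an unadjusted p under 0.05, Igf2os, which was also the 1 that DESeq2 called. Igf2os is a member, so both counts rest on the contrast that chose it. Over all features the shares were 7.43% and 3.43%. Kcnq1ot1, which silences an imprinted domain near Igf2, was at 188 and 179 CPM against 185, 135 and 219 CPM, so its groups overlapped. Peg13 was at 53.0 and 39.8 against 28.7, 37.4 and 29.2 CPM, and Xist, the RNA of the inactive X chromosome, was low in 1 library of each group, with 9.96 CPM for Control 3 and 7.27 CPM for PRC1 i2KO 3. Of the broadly expressed RNAs, 26 of 31 were in the table and 23 tested, with 0 called by edgeR. At an unadjusted edgeR p under 0.05, 0 were higher and 3 lower (Malat1, Neat1 and Dleu2), against 7.43% and 3.51% of all features. DESeq2 called 1 lower (Dleu2), against 0.75% of all. Gas5 was at 291 and 352 CPM against 416, 294 and 468 CPM. limma-voom called 0 in each of these lists.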

How the data were processed

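Polyadenylated RNA of 2 Control and 3 PRC1 i2KO samples of sorted hair follicle stem cells was measured. The authors deposited, for each of 30840 features and each sample, an expected count, an estimate of which 61.5% of values above 0 were not whole (tolerance 0.001), and a TPM value. Per the submitters' processing notes, mm39, RSEM 1.3.3, STAR 2.7.9a and DESeq2 1.38.2 were used, in roles not given. Because the identifiers match GENCODE M21 (99.97%), which is on another build, M21 served for names, types and neighbours, and coordinates appear only for RefSeq promoters of GRCm38.p6.

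The 11 members, the lists and the tests were chosen with earlier results of these data known. Expected counts were rounded and tested with edgeR 4.0.16 (R 4.3.3; filterByExpr, TMM, quasi-likelihood F test, group only, Benjamini-Hochberg over 22181 features, threshold 0.05), a script tested on simulated data. CPM values are TMM-scaled, the ± of a log2 fold change is its SE, and fold changes are PRC1 i2KO over Control. DESeq2 1.42.0, limma-voom and limma 3.58.1 on log2(TPM + 1) and log2(TPM + 0.1) were alternatives. For a gene with no control count the fold is a bound over 3 counts in both controls together, and intervals (95%) and floors cover counting error only. Members named with values in each library were those with high PRC1 i2KO TPM, a gene-derived name or a called neighbour, which took in all 11. From the lists, the 3 RNAs with the highest mean CPM and any called are named. The lists were Hox cluster, developmental opposite-strand, imprinted and dosage, and broadly expressed lncRNAs, and markers of bulge, fibroblast, neuron or Schwann, melanocyte, Merkel, immune, endothelial and germ cells.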

Additional observations from a re-analysis of the deposited data

How the results depend on the processing

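The number of RNAs chosen moved with the limits: 11 became 7 with controls at most 0.05 TPM, 30 with 0.2 TPM, 5 with no control count, 33 with at least 5 counts, 5 with at least 20 counts, 7 with at least 0.5 CPM in each PRC1 i2KO library, and 27 to 50 when 1 library was left out of the choice. The same limits gave 122 protein-coding features and the mirrored limits 30 long noncoding ones. Asking, after the data were seen, that every PRC1 i2KO library exceed both controls gave 10 by CPM and by TPM.

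Over all features edgeR called 28 higher and 0 lower. Without the filter it called 140 and 12, DESeq2 745 and 163, limma-voom 4 and 0, and limma 2 and 1 with log2(TPM + 1) values and 7 and 5 with log2(TPM + 0.1) values. Leaving out 1 library gave 4 to 39 higher and 0 to 4 lower. Long noncoding features called higher were 0, with 20 by DESeq2 and 0 to 1 with a library left out (Gm26883 without Control 3). Those called lower were 0, with 4 without the filter, 35 by DESeq2, 1 by log2(TPM + 0.1) and 0 to 1 with a library left out (Gm26759 without PRC1 i2KO 2). Neighbours called higher were 1, with 2 without the filter, 3 by DESeq2, 0 among those that do not overlap and 2 within 100 kb. The share of counts differed by -1.31 to -0.925 percentage points with 1 library left out, by -0.929 without mitochondrially encoded features and by -0.395 in TPM, from -1.12. Slc39a7 turned from 0.16 to -0.17 and -0.18 on log2(TPM + 1) and log2(TPM + 0.1), and Ring1, at -0.44, ranged from -0.99 to 0.43 with a library left out, above 0 without Control 3. Causes were not tested.

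Sample numbers did not pair the samples: same-numbered deviations correlated at 0.065 and 0.041 by title and at -0.024 and -0.065 by description. With the title number as a block, 140 features were higher and 25 lower, 5 long noncoding features lower, 2 neighbours higher, and Slc39a7 at -0.013. With the description number as a block, 10 were higher and 0 lower. Depth limits what low values can show: a single count was 0.0793 CPM in Control 3 and 0.0203 CPM in Control 2.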

Other observations

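The limits used for the long noncoding RNAs also passed 10 features of other noncoding or unclassified types: 6 unclassified (TEC) transcripts, 2 processed pseudogenes, 1 sense intronic RNA and 1 transcribed unprocessed pseudogene. They were looked at after the members were known and are given as values. The processed pseudogene Gm48836 was at 0.00533 and 0 CPM in Control 2 and 3 and at 5.79, 3.67 and 2.996 CPM in PRC1 i2KO 1, 2 and 3, higher in each of these libraries than Gm28050. Reads of a processed pseudogene may belong to its parent gene. The TEC transcript Gm43676 had no control count and 1.24, 0.654 and 4.397 CPM, and Gm47405, a sense intronic RNA, had 0 and 0.159 CPM in the controls and 3.26, 0.226 and 0.446 CPM in PRC1 i2KO, so that only sample 1 was far above.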
